A study of Mus musculus with 24 samples.

Results

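The genes described here are 38 interferon-stimulated genes, listed by name from the 35855 genes counted in RNA of mouse airway epithelial cells. They are 5 genes of the IFIT family, 3 of the ISG15 system, 5 of the OAS family, 13 other antiviral effectors, 3 cytoplasmic sensors of viral RNA, 4 transcription factors, 2 guanylate-binding proteins and 3 genes of antigen processing. Of the 38, 36 passed a filter on low counts and were among the 12211 genes tested, and Ifit2 and Rsad2 were too low to test. Ifit1bl1 had already been picked for its difference between the BCAM HI and BCAM LO cells, so that difference, and its differences from DIFFERENTIATED EPCS, which use the same libraries, are given as descriptions with no test.

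Interferons are secreted proteins that warn cells of infection. Type I and type III interferons act through their receptors and JAK kinases on a complex that holds STAT2 and IRF9 and binds a DNA motif called the interferon-stimulated response element (ISRE), while interferon gamma acts on a motif called the gamma-activated site (GAS). The genes switched on in this way block viral entry, translation, replication and release, sense viral RNA, and raise antigen presentation, and epithelial cells of the airway express a basal level of many of them without infection.

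RNA was sequenced from 24 libraries, each made from 1000 airway epithelial cells sorted from the trachea of untreated, wild-type female mice, whose strain the series title gives as C57BL/6; their age is not stated in the labels. The groups were BCAM HI and BCAM LO cells, sorted by high or low BCAM (basal cell adhesion molecule, a laminin receptor), which the title calls basal cell subsets, and DIFFERENTIATED EPCS, with 8 libraries each. In every group, replicates 1 to 5 carry the label batch 1 and replicates 6 to 8 the label batch 2, with no word on what a batch was. No group was infected or given interferon by its labels, and nothing in them says whether the libraries of a group came from separate animals, so p-values measure the spread between these libraries, which may be technical.

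Estimated counts totalled 1824619 to 4440072 per library. Levels are given as CPM, counts scaled to a common library total and then by trimmed mean of M-values (TMM). Differences are log2 fold changes with their SE from edgeR's quasi-likelihood test over all genes, with Benjamini-Hochberg adjustment. A gene is called at an adjusted p under 0.05. Libraries counted as higher or lower lie above or below the median of the other group, so ranges may still overlap. Between batches, each library of batch 2 is set against the batch 1 median of its own group. The 7 basal markers summed to 2692.6 to 4150.9 CPM in BCAM HI, 1453.4 to 2118.1 CPM in BCAM LO and 10 to 30.3 CPM in DIFFERENTIATED EPCS. The 7 secretory markers held 23.3% to 30% of the counts of the DIFFERENTIATED EPCS libraries of batch 1, 1.26% to 8.5% of those of batch 2, 2.89% to 4.05% of BCAM HI and 3.51% to 7.46% of BCAM LO. The 5 thyroid markers held 1% to 2.08% of the counts of DIFFERENTIATED EPCS libraries of batch 1, 4.69% to 10.9% of those of batch 2 and at most 0.157% of any BCAM library, so the 3 DIFFERENTIATED EPCS libraries of batch 2 stood apart from the other 5. In bulk samples, fewer cells of a type and less RNA per cell cannot be told apart.

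The promoters of members were searched for the motifs that these regulators are known to bind. RefSeq (build GRCm38.p6) gave a promoter for 29 of the 38 members; Usp18, Oas2, Mx1, Mx2, Zbp1, Rtp4, Ifi27, Parp14 and Dhx58 were missing. The 250 bases before each start were searched on both strands for the ISRE core, which is GAAA, any 2 bases and GAAA again, and the GAS letters TTCNNNGAA, where N is any base. The ISRE core was in the promoters of 12 of the 29 members and of 3.46% of 27025 genes, and the GAS letters were in those of 5 of the 29 members and of 8.13% of genes. The promoters below are those of Ifit1bl1 (chr19:34601969-34602218, minus strand) and its neighbour Ifit1 (chr19:34640639-34640888, plus strand), which differ in how their RNA was spread over the groups; of Isg15 (chr4:156200819-156201068, minus strand), with 3 overlapping cores; and of Irf1 (chr11:53769764-53770013, plus strand) and Irf7 (chr7:141266425-141266674, minus strand), transcription factors that differed in how they varied. Capitals mark the ISRE core in the first 3 (its complement where it lies on the other strand) and the GAS letters in Irf1; the Irf7 window holds neither set of letters.
Ifit1bl1: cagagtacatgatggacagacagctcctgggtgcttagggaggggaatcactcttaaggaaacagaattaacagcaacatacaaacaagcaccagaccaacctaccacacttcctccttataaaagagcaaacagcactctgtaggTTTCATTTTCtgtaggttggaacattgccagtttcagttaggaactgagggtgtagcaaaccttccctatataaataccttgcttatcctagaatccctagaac
Ifit1: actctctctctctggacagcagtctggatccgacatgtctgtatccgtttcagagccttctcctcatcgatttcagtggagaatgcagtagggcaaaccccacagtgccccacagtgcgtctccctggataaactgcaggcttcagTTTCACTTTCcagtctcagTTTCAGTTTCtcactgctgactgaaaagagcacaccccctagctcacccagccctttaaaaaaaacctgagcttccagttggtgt
Isg15: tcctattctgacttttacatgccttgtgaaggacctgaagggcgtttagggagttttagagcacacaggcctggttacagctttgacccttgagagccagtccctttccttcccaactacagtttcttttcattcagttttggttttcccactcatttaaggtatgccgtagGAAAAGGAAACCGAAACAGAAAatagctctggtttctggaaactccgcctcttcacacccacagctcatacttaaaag
Irf1: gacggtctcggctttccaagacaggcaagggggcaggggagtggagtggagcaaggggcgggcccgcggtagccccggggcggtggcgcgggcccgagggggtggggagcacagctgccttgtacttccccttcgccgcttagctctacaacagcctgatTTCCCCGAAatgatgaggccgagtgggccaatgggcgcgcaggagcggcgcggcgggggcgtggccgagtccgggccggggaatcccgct
Irf7: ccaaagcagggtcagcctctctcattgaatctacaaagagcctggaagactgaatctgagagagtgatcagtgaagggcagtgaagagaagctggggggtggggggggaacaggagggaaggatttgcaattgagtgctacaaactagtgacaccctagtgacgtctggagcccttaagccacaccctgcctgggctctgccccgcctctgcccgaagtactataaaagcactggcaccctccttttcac

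In these windows the core began 104 bases before the start of both Ifit1bl1 and Ifit1, and Ifit1 had a second core 85 bases before its start. Isg15 had cores 78, 72 and 66 bases before its start, and Irf1 had its GAS letters 90 bases before its start. The other members with an ISRE core were Ifit3, Ifit3b, Oas1a, Oas3, Rsad2, Bst2, Stat2, Gbp2 and Gbp3, and the other members with the GAS letters were Ifit2, Oas1a, Bst2 and Psmb8. A match is a string of letters and not a measured binding site.

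Levels can be compared between genes only per length, on the authors' TPM scale. By the median TPM over 8 libraries, Ifitm3, whose protein traps viruses at the endosomal membrane, was the highest member in each group, at 1151.6 in BCAM HI, 851 in BCAM LO and 460 in DIFFERENTIATED EPCS. Ifi27, a small membrane protein gene, followed at 396, 284 and 288 TPM. Next came Irf1 with 61.9 TPM in BCAM HI and Psmb8, a subunit of the immunoproteasome, with 68.5 TPM in BCAM LO and 60.9 TPM in DIFFERENTIATED EPCS. The lowest members were Ifit1bl1 in BCAM HI at 0.0753 TPM, Ifit2 in BCAM LO at 0.442 TPM and Rsad2 in DIFFERENTIATED EPCS at 0.197 TPM. The ranges over libraries of Ifitm3 and Ifi27 did not meet in BCAM HI, at 713 to 1444.5 TPM against 198 to 691 TPM, while in BCAM LO Ifitm3 ran from 415 TPM and Ifi27 reached 617 TPM.

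**Figure D1:**
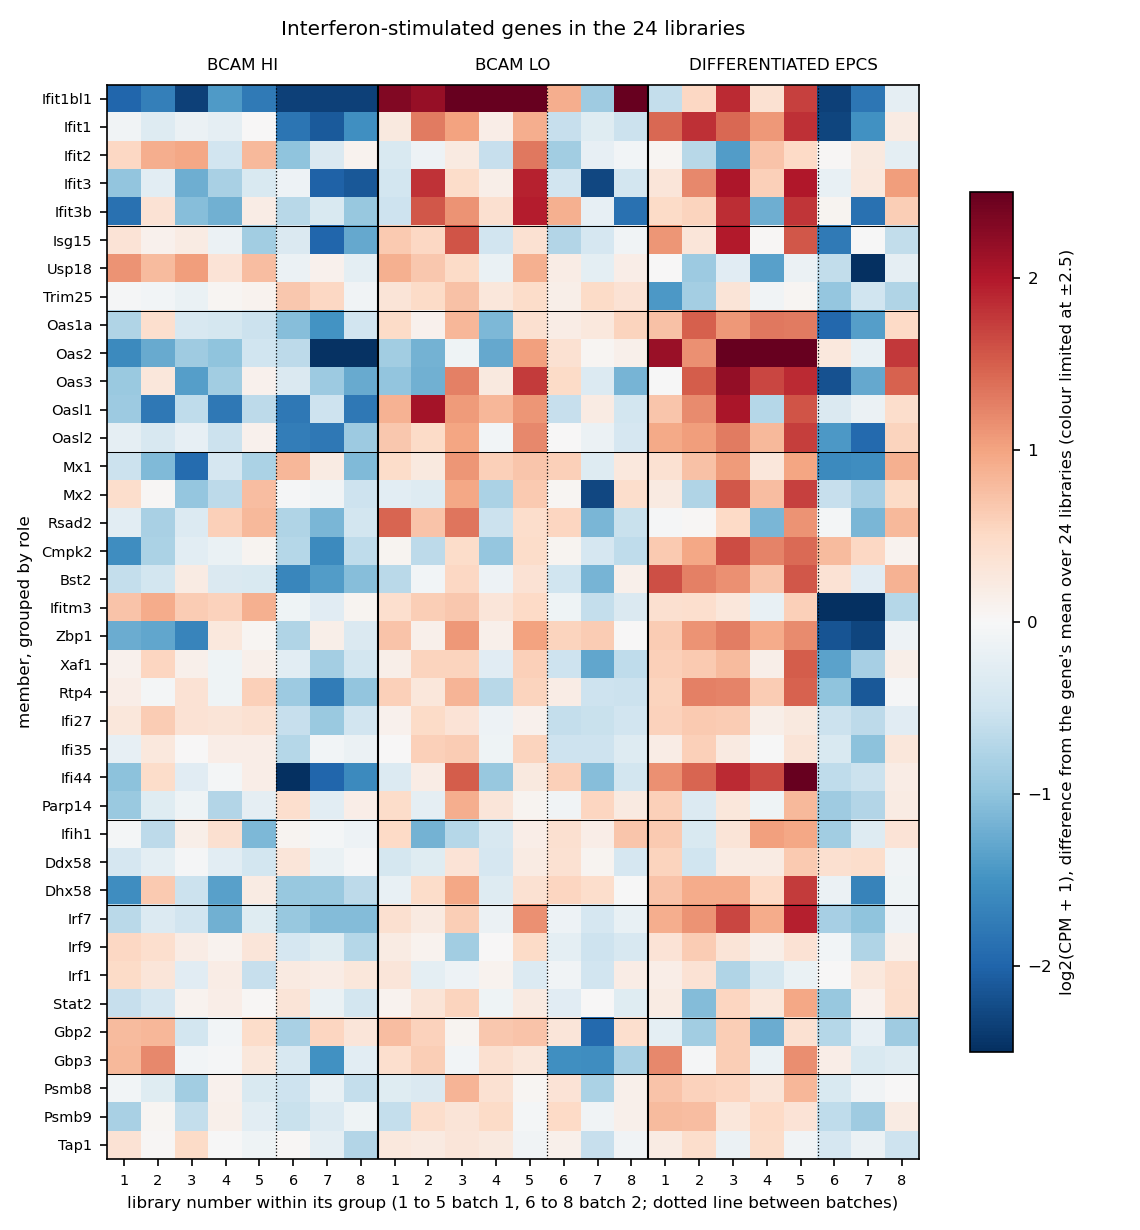
Level of each of the 38 members (rows, by role) in each of the 24 libraries (columns, by group and batch), as log2(CPM + 1) less the member's mean over the libraries. Ifit1bl1 and Oasl1 are blue across BCAM HI, where 4 of 8 libraries of each had a count of 0, and DIFFERENTIATED EPCS libraries 6 and 7 hold the lowest level of their group in 12 and 16 members.

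The comparison of BCAM HI with BCAM LO asks how the basal subsets differ. Of the interferon-stimulated genes, 6 of 36 were called lower in BCAM HI and 0 higher, counting Ifit1bl1, against 7.02% of all genes called, 4.59% lower and 2.43% higher. The called members were Ifit1 and Ifit3 of the IFIT family, Oasl1 and Oasl2 of the OAS family and the transcription factor Irf7. Ifit1bl1 is counted with them as a description only, since it was picked on this contrast. The members were also listed with earlier results of these data known, so their count is a description beside the share of all genes. Of the 36, 30 had a fitted change below 0, with a median log2 difference of -0.51, against 0.00 over all genes tested. These comparisons share libraries with those to DIFFERENTIATED EPCS, so counts are given side by side and not tested against each other.

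Ifit1bl1 lies on chromosome 19 from 34592891 to 34601956 on the minus strand of GRCm38, in the cluster of IFIT genes. Its counts summed to 8 over the BCAM HI libraries, of which 4 were at 0, among them the 3 of batch 2, and to 861 over the BCAM LO libraries. Its level there ran from 0 through a median of 0.138 to 0.881 CPM, in BCAM LO from 1.71 through 27.0 to 59.2 CPM, and in DIFFERENTIATED EPCS from 0 through 4.42 to 17.4 CPM. Every BCAM LO library lay above every BCAM HI library, a pattern with no test because the gene was picked on it, and the only member with it; 0.999% of all genes had all BCAM HI libraries below all BCAM LO libraries. The fitted log2 difference was -6.60 (SE 0.67).

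The neighbour Ifit1 (chromosome 19, 34640871 to 34650009, plus strand), which binds viral RNA without a methylated cap and blocks its translation, was detected in every library. It ran from 5.31 through a median of 21.4 to 26.1 CPM in BCAM HI and from 17.2 through 30.2 to 66.0 CPM in BCAM LO. All 8 BCAM HI libraries lay below the BCAM LO median and the ranges overlapped. The difference of -1.14 (SE 0.26) had an edgeR adjusted p of 0.00586.

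Oasl1 and Oasl2 are relatives of the oligoadenylate synthases and sit next to each other on chromosome 5; OASL1 is known to repress translation of Irf7 messenger RNA. Oasl1 ran from 0 through a median of 0.413 to 1.41 CPM in BCAM HI and from 1.32 through 5.20 to 13.5 CPM in BCAM LO, so the highest BCAM HI library passed only the lowest of BCAM LO. Its difference was -3.02 (SE 0.61, edgeR adjusted p = 0.00235), with 8 of 8 BCAM HI libraries below the BCAM LO median.

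Oasl2 was far more abundant, from 16.6 through 43.2 to 64.5 CPM in BCAM HI and from 44.4 through 72.2 to 139 CPM in BCAM LO. All 8 BCAM HI libraries lay below the BCAM LO median, and the difference was -1.09 (SE 0.28, edgeR adjusted p = 0.0175), a call that 4 of 10 alternative settings lost.

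Irf7, the transcription factor that drives the later wave of interferon genes, lies on chromosome 7 from 141262706 to 141266481. It ran from 10.6 through a median of 14.3 to 20.6 CPM in BCAM HI and from 18.9 through 26.9 to 57.8 CPM in BCAM LO, so the groups met only at their edges. The difference was -1.01 (SE 0.24, edgeR adjusted p = 0.00983), with 8 of 8 BCAM HI libraries below the BCAM LO median.

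Ifit3 was called at the very edge of the threshold, at -1.55 (SE 0.49, edgeR adjusted p = 0.04997), with 8 of 8 BCAM HI libraries below the BCAM LO median. Its reads cannot be placed well: only 38.2% of its 31-base words were absent from every other gene, against 44.7% for its copy Ifit3b, 80.7% for Ifit1bl1, 89.2% for Ifit1 and 31.2% for Oas1a. With copies summed, the difference between BCAM HI and BCAM LO was -1.62 (SE 0.45, edgeR adjusted p = 0.0283) for Ifit3 with Ifit3b. For Ifit1 with Ifit1bl1 and Ifit1bl2 it was -1.87 (SE 0.26), a description, since the sum holds Ifit1bl1. The other 30 tested members were not called; among the largest of these were Oas2 at -1.65 and Zbp1 at -1.15, each with 8 of 8 BCAM HI libraries below the BCAM LO median, while Gbp3 had the highest fitted value at 0.36.

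Within batch 1 alone (5 against 5 libraries), 8 members were called lower in BCAM HI, the 6 above with Mx1 and Zbp1, against 5.69% of all genes called. Within batch 2 alone (3 against 3) edgeR called 0 of 31 members at the adjusted threshold and 7 at an unadjusted p under 0.05, against 4.38% of all genes called. The 12 immune markers (5 of them tested) summed to 18.4 to 53.8 CPM in BCAM HI and 9.43 to 170 CPM in BCAM LO, with 0 called; without BCAM LO libraries 1 and 4, which had the highest sums, 10 members were called lower, against 6.35% of all genes called. Other markers differed as well: 4 of 8 ciliated and 4 of 7 secretory markers were lower in BCAM HI and 4 of 7 basal markers were higher. The 8 ciliated markers summed to 8.28 to 22.8 CPM in batch 1 of BCAM LO and 181 to 339 CPM in its batch 2, against 4.6 to 15.6 CPM in BCAM HI. Of the 6 tested suprabasal and hillock markers, 4 were lower in BCAM HI, where the 7 markers summed to 372 to 902 CPM against 1000.5 to 2433.9 CPM in BCAM LO; their part in the result was not tested.

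**Figure D2:**
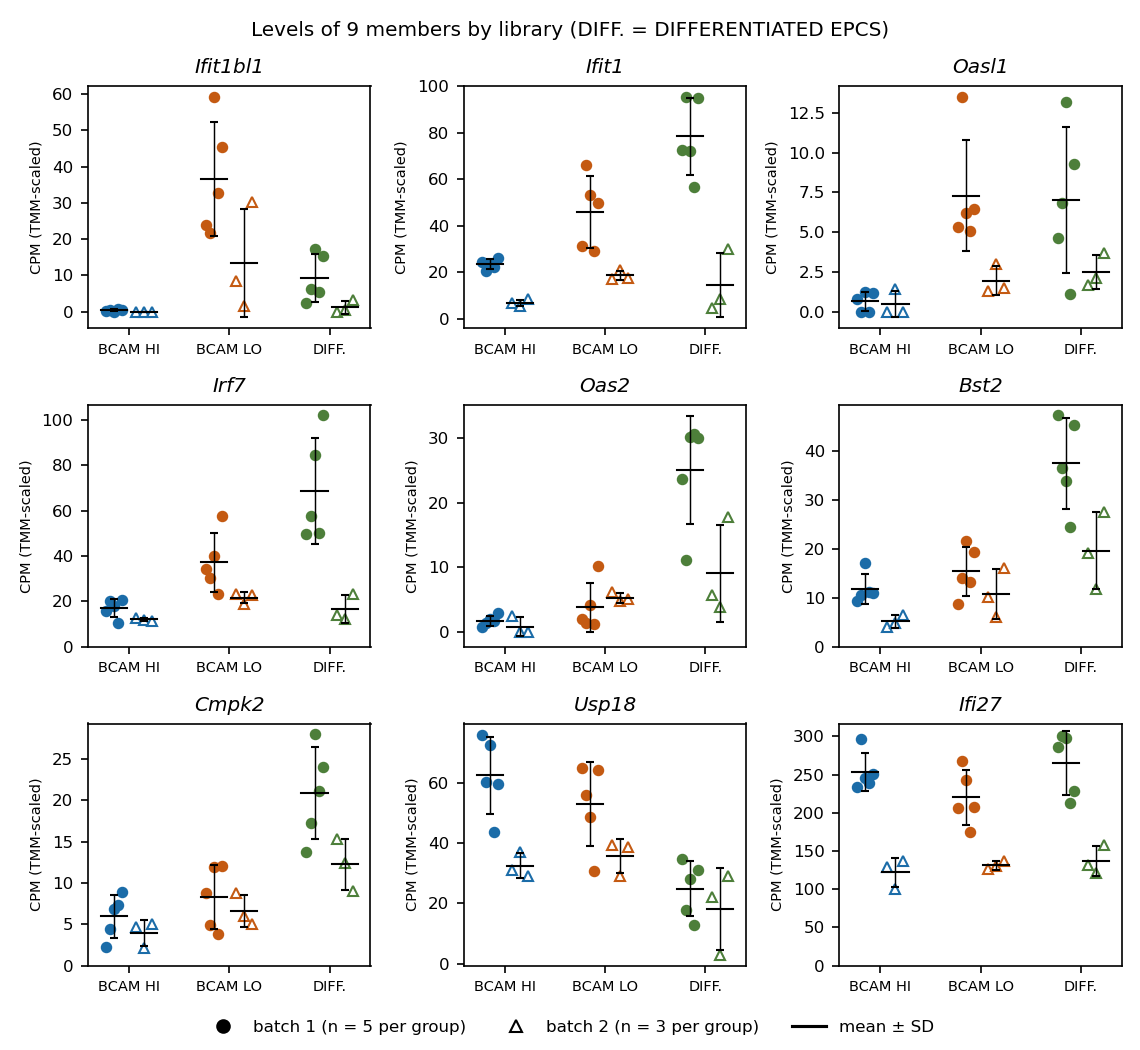
Level in CPM (vertical axes, linear) of members that the comparisons turn on, in each library of BCAM HI, BCAM LO and DIFFERENTIATED EPCS, with filled circles for batch 1 (n = 5), open triangles for batch 2 (n = 3), and lines with bars for the mean ± SD of each batch. Ifit1bl1 is at or near 0 CPM in BCAM HI, between 1.71 and 59.2 CPM in BCAM LO and at most 17.4 CPM in DIFFERENTIATED EPCS.

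The comparison of BCAM HI with DIFFERENTIATED EPCS asks how this subset differs from the other sorted cells. In BCAM HI, 17 of 36 members were called lower, counting Ifit1bl1, and 3 higher, against 22.0% and 19.4% of all genes (41.3% called in all). The lower members included all 5 OAS genes, 3 of 4 tested IFIT genes, 2 of 3 sensors and 1 of 4 transcription factors, and the higher ones were Usp18 and Trim25 of the ISG15 system and Ifitm3. The median log2 difference was -0.72, against 0.02 over all genes tested. This direction depends on the scale: with log2(TPM + 1) in limma the median of all genes was 0.64 and that of the members 0.08, and 10 members were called higher and 8 lower, where 63.4% of all genes were called and 88.3% of these were higher, with Rtp4 and Ddx58 reversed in sign, while relative to the median of all genes all 20 called members kept their direction. The same scale moved the median of all genes by 0.23 between BCAM HI and BCAM LO, by 0.61 here, by 0.38 between BCAM LO and DIFFERENTIATED EPCS and by 0.11 between batches; no call of those other comparisons changed sign.

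Bst2, or tetherin, holds budding viruses at the cell surface. It ran from 4.08 through a median of 9.94 to 17.1 CPM in BCAM HI and from 11.9 through 30.7 to 47.2 CPM in DIFFERENTIATED EPCS. The ranges overlapped, and all 8 BCAM HI libraries lay below the other median. The difference was -1.73 (SE 0.23, edgeR adjusted p = 6.00e-07).

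Oas2 makes the 2′-5′-linked oligoadenylates that activate RNase L. It ran from 0 through a median of 1.54 to 2.88 CPM in BCAM HI and from 3.84 through 20.7 to 30.6 CPM in DIFFERENTIATED EPCS, and no BCAM HI library reached the lowest of the other group. Its difference of -3.66 (SE 0.54) had an edgeR adjusted p of 3.13e-06, with 8 of 8 libraries lower.

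Cmpk2, a mitochondrial nucleotide kinase gene beside Rsad2, had the same separation, from 2.12 through 4.87 to 8.88 CPM against 9.05 through 16.3 to 28.0 CPM. Its difference was -1.73 (SE 0.29, edgeR adjusted p = 1.85e-05), with 8 of 8 libraries lower. Oas2 and Cmpk2 were the 2 of 36 members with all BCAM HI libraries below all DIFFERENTIATED EPCS libraries, against 7.30% of all genes.

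Irf7 ran from 12.4 through a median of 49.8 to 102 CPM in DIFFERENTIATED EPCS, and its difference was -1.52 (SE 0.25, edgeR adjusted p = 1.15e-05), with 8 of 8 BCAM HI libraries below that median. Ifit1 ran from 4.52 through 64.5 to 95.3 CPM there, with a difference of -1.56 (SE 0.26, edgeR adjusted p = 1.57e-05) and again 8 of 8 libraries below the median. For both genes the lowest DIFFERENTIATED EPCS libraries were those of batch 2. The difference of Irf7 was -2 in batch 1 alone and -0.47 in batch 2 alone, where it was not called (edgeR adjusted p = 0.311, 3 against 3 libraries), and Ifit1 lost its call there too. Ifit1 lost its call with limma on either TPM scale.

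The other 12 members called lower were Ifit1bl1, Ifit3, Isg15, Oas1a, Oas3, Oasl1, Oasl2, Rtp4, Ifi44, Ddx58, Dhx58 and Psmb8, with log2 differences from -4.30 (Ifit1bl1) to -0.44 (Ddx58). Isg15 encodes the ubiquitin-like modifier at the head of its system, Ddx58 encodes the RNA sensor RIG-I, and Dhx58 its relative LGP2. Oas1a is uncertain because of its copies; with the 8 Oas1 genes summed the difference was -1.01 (SE 0.27, edgeR adjusted p = 0.00402).

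The 3 members that went the other way have different known roles. Usp18, the protease that removes ISG15 and dampens the type I receptor, ran from 29.1 through a median of 51.8 to 76.0 CPM in BCAM HI and from 2.99 through 25 to 34.6 CPM in DIFFERENTIATED EPCS, with 8 of 8 libraries above the other median and a difference of 1.16 (SE 0.26, edgeR adjusted p = 7.73e-04). Trim25, a ubiquitin ligase of the RIG-I pathway, was higher by 0.58 (SE 0.20, edgeR adjusted p = 0.0177) in 8 of 8 libraries. Ifitm3 was higher by 0.84 (SE 0.26, edgeR adjusted p = 0.0128), with only 5 of 8 libraries above the median of DIFFERENTIATED EPCS.

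Within batch 1 the count was 22 lower and 2 higher, of 36, against 33.7% of all genes called. Within batch 2 it was 4 lower (Oas2, Cmpk2, Bst2 and Ifi44) and 1 higher (Trim25), of 31, against 29.6% of all genes called. Of the 5 immune markers tested, 3 were higher in BCAM HI and 0 lower, and the 12 summed to 3.39 to 37.5 CPM in DIFFERENTIATED EPCS. The secretory and thyroid shares given above differ between the same groups, and the part of these markers in the result was not tested.

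**Figure D3:**
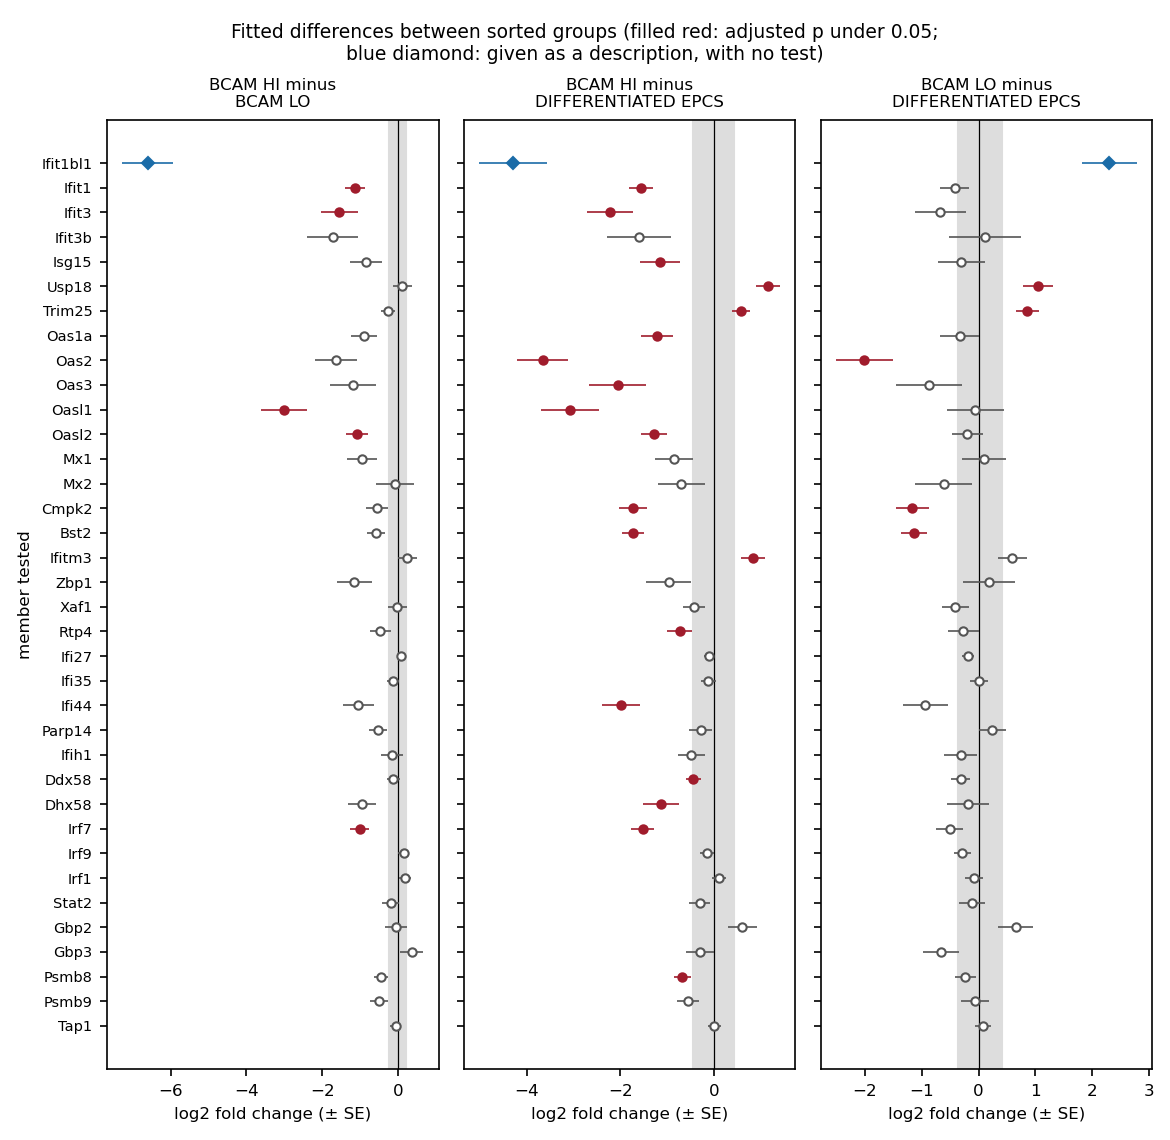
Log2 fold change with its SE (horizontal axes) of the 36 tested members in the 3 group comparisons; filled red points have an edgeR adjusted p under 0.05, blue diamonds are the values of Ifit1bl1, given as descriptions, and the grey band runs from the lower to the upper quartile of all genes tested. Points lie mostly left of 0 in both comparisons with BCAM HI, where 30 of 36 are below 0 in each, and on both sides in BCAM LO minus DIFFERENTIATED EPCS.

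The comparison of BCAM LO with DIFFERENTIATED EPCS asks the same of the other subset. Here 3 members were called higher, counting Ifit1bl1, and 3 lower, against 16.3% and 17.1% of all genes (33.5% called in all), and the median difference was -0.22, against 0.02. This direction also depends on the scale: with log2(TPM + 1) in limma the members' median was 0.31, with 28 of 36 above 0, and 5 were called higher and 2 lower, where 40.1% of all genes were called and 86.6% of these were higher. The 30 other tested members were not called, among them Isg15, Oasl1, Mx1 and the 3 antigen processing genes.

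For Ifit1bl1 the fitted log2 difference was 2.30 (SE 0.49), given as a description, with 7 of 8 libraries above the DIFFERENTIATED EPCS median of 4.42 CPM. The exception was BCAM LO library 7, at 1.71 CPM. Ifit1 itself differed by -0.42 (SE 0.25, edgeR adjusted p = 0.199), with 1 of 8 libraries above the median, and with Ifit1, Ifit1bl1 and Ifit1bl2 summed the difference was 0.25 (SE 0.25).

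Trim25 ran from 36.6 through a median of 44.1 to 55.8 CPM in BCAM LO and from 11.5 through 21.2 to 41.7 CPM in DIFFERENTIATED EPCS, so the ranges overlapped at their edges. It was higher by 0.86 (SE 0.20, edgeR adjusted p = 0.00104), in 8 of 8 libraries. Usp18 ran from 29.1 through 44.0 to 64.9 CPM in BCAM LO and was higher by 1.05 (SE 0.26, edgeR adjusted p = 0.00292), in 8 of 8 libraries.

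For each of the 3 lower members all 8 BCAM LO libraries lay below the DIFFERENTIATED EPCS median, and the ranges overlapped. Bst2 ran from 6.00 through a median of 13.6 to 21.5 CPM in BCAM LO, a difference of -1.14 (SE 0.23, edgeR adjusted p = 2.70e-04). Cmpk2 ran from 3.82 through 7.41 to 12 CPM, a difference of -1.17 (SE 0.29, edgeR adjusted p = 0.0022). Oas2 ran from 1.27 through 4.42 to 10.2 CPM, a difference of -2.01 (SE 0.50, edgeR adjusted p = 0.00267). The Cmpk2 call was lost with limma on both TPM scales, that of Oas2 on log2(TPM + 0.1), and all 3 in batch 2 alone. For these 3 genes the median level rose in the order BCAM HI, BCAM LO, DIFFERENTIATED EPCS, and BCAM HI and BCAM LO were not called apart in any of them.

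Within batch 1 the comparison called 11 members, 3 higher and 8 lower, adding Ifit1, Oas1a, Rtp4, Ifi44 and Irf7 to the lower ones, against 33.1% of all genes called. Within batch 2 it called Trim25 alone, of 31, against 17.9% of all genes, and 3 members had an unadjusted p under 0.05. All 5 immune markers tested were higher in BCAM LO and 5 of 6 suprabasal and hillock markers were too, with 1 lower. Without BCAM LO libraries 1 and 4 the count of members was again 3 higher and 3 lower, against 28.1% of all genes called. BCAM LO libraries 1 and 4 had means of log2(CPM + 1) over the members of 4.26 and 4.02, the lowest in batch 1 of that group. In batch 2 of BCAM LO these means ran from 3.57 to 4.07. The part of the immune and other markers was not tested.

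Each batch holds libraries of every group, so batches were compared over the 3 groups. In this comparison, 18 of 36 members were called lower in batch 2 and 0 higher, against 9.61% and 11.8% of all genes (21.4% called in all). The 18 were Ifit1bl1, Ifit1, Ifit3, Isg15, Usp18, Oasl1, Oasl2, Bst2, Ifitm3, Xaf1, Rtp4, Ifi27, Ifi35, Ifi44, Irf7, Irf9, Gbp3 and Tap1. Their log2 differences ran from -1.93 (Ifit1bl1) to -0.46 (Tap1). The median over the 36 was -0.72, against 0.01 over all genes, and 33 of 36 members had a fitted change below 0. The exceptions were Irf1 at 0.16, Ddx58 at 0.16 and Ifih1, the gene of the sensor MDA5, at 0.03, none of them called.

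Ifi27 had the smallest p. It ran from 234 to 297 CPM in batch 1 and from 101 to 137 CPM in batch 2 of BCAM HI, from 175 to 268 CPM and from 126 to 137 CPM in BCAM LO, and from 213 to 301 CPM and from 121 to 158 CPM in DIFFERENTIATED EPCS. The batches did not overlap in any group, while the group medians of 236, 191 and 221 CPM lay close together. The batch difference was -0.91 (SE 0.09, edgeR adjusted p = 5.47e-08), lower in 9 of 9 libraries of batch 2.

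Ifit1 separated by batch in each group as well. It ran from 20.5 to 26.1 CPM in batch 1 and from 5.31 to 8.30 CPM in batch 2 of BCAM HI, from 29.3 to 66.0 CPM and from 17.2 to 21 CPM in BCAM LO, and from 56.7 to 95.3 CPM and from 4.52 to 30.0 CPM in DIFFERENTIATED EPCS. The batch difference was -1.81 (SE 0.23, edgeR adjusted p = 3.64e-06), lower in 9 of 9 libraries.

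Rtp4, a receptor transporter known to bind and inhibit flavivirus replication, ran from 22 to 36.7 CPM in batch 1 and from 6.37 to 12.2 CPM in batch 2 of BCAM HI, and from 35.7 to 67.7 CPM and from 4.69 to 23.5 CPM in DIFFERENTIATED EPCS. In BCAM LO the batches overlapped, at 14.3 to 43.5 CPM and 16.1 to 27.3 CPM. Its difference was -1.33 (SE 0.24, edgeR adjusted p = 2.76e-04), lower in 9 of 9 libraries.

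Xaf1, which binds the apoptosis inhibitor XIAP, ran from 12 to 19.4 CPM in batch 1 and from 6.72 to 10.7 CPM in batch 2 of BCAM HI, and from 10.5 to 20.2 CPM and from 4.72 to 8.82 CPM in BCAM LO. Its difference was -1.11 (SE 0.21, edgeR adjusted p = 3.67e-04), lower in 9 of 9 libraries. The batch difference of Irf7 was -1.08 (SE 0.21, edgeR adjusted p = 5.93e-04), lower in 9 of 9 libraries, with unequal sizes between groups as described further on. For 4 members (Ifit1, Ifitm3, Xaf1 and Ifi27) all batch 2 libraries lay below all batch 1 libraries in each of the 3 groups, against 1.20% of all genes.

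Within single groups, 6 members were called lower in batch 2 in BCAM HI (Ifit1, Bst2, Rtp4, Ifi27, Ifi44 and Irf9), against 8.04% of all genes called, 3.11% lower and 4.93% higher. In BCAM LO 6 were lower (Ifit1, Ifit3, Xaf1, Ifi27, Ifi35 and Gbp3), against 11.1% of all genes called, 4.66% lower and 6.48% higher. In DIFFERENTIATED EPCS 15 were lower, against 20.1% of all genes called, 10.2% lower and 9.98% higher, with a median of -0.99, and no member was called higher in any group. All batch 2 libraries lay below all batch 1 libraries for 11 of 36 members in BCAM HI, against 9.04% of all genes, for 8 in BCAM LO, against 8.41%, and for 15 in DIFFERENTIATED EPCS, against 10.8%. Only Ifit1 and Ifi27 were called in all 3 groups; 4 members were called in 2 groups, 13 in 1 and 17 in none. The counts rest on few libraries: without BCAM HI library 6 or 7 the first fell to as low as 3, without BCAM LO library 6 or 7 the second to as low as 1, and without DIFFERENTIATED EPCS library 6 the third was 9.

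Other transcripts moved with the batch. Of the tested markers, 3 of 5 immune and 4 of 6 suprabasal and hillock markers were lower in batch 2, and all 5 thyroid and all 8 ciliated markers were higher. These are calls over the 3 groups. Within BCAM HI, 0 immune, 0 suprabasal and hillock and 0 ciliated markers were called, and 4 of 5 thyroid markers were higher. The 12 immune markers summed to 30.7 to 53.8 CPM in batch 1 and 18.4 to 29.2 CPM in batch 2 of BCAM HI, 61.5 to 170 CPM and 9.43 to 27.3 CPM in BCAM LO, and 12 to 37.5 CPM and 3.39 to 8.53 CPM in DIFFERENTIATED EPCS. In batch 2, Cd3e was at 0 in all BCAM HI libraries, Cd3e and Siglech in all BCAM LO libraries, and Tyrobp and Itgax in all DIFFERENTIATED EPCS libraries. Without the DIFFERENTIATED EPCS libraries, 13 of 31 members were called lower and 0 higher, against 18.2% of all genes called; the part of the immune and other markers was not tested.

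**Figure D4:**
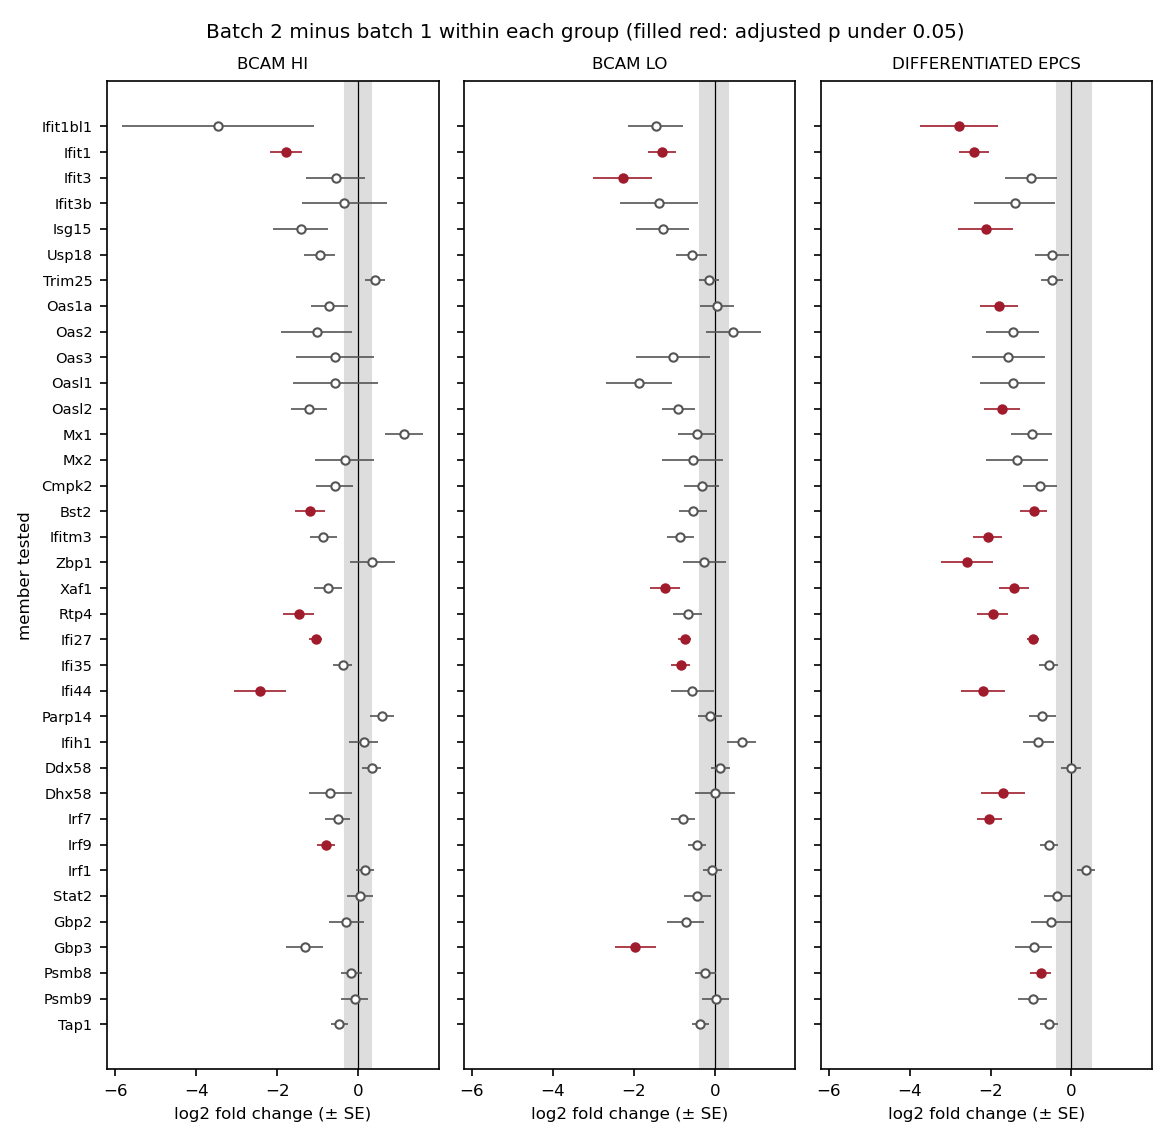
Log2 fold change of batch 2 minus batch 1 with its SE (horizontal axes) of the 36 tested members within BCAM HI, BCAM LO and DIFFERENTIATED EPCS; filled red points have an edgeR adjusted p under 0.05 and the grey band runs from the lower to the upper quartile of all genes tested. All filled points lie left of 0, with 6, 6 and 15 of them.

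Whether the batch change itself differed between the groups was tested with 1 mean for each group in each batch. Of 36 members, 2 were called, Irf7 (edgeR adjusted p = 0.0241) and Zbp1 (edgeR adjusted p = 0.0411), against 12.3% of all genes. Between pairs of groups, the batch change of 0 members was called different for BCAM HI minus BCAM LO, against 1.06% of all genes (0.172% higher and 0.884% lower). For BCAM HI minus DIFFERENTIATED EPCS 2 were called higher and 0 lower, against 8.69% of all genes (5.41% and 3.28%), and for BCAM LO minus DIFFERENTIATED EPCS 1 was higher and 0 lower, against 11.4% (6.81% and 4.55%). In DIFFERENTIATED EPCS, Irf7 ran from 49.5 through a median of 57.5 to 102 CPM in batch 1 and from 12.4 through 14.1 to 23.5 CPM in batch 2, where all 3 libraries lay below all 5. In BCAM HI its batches overlapped, at 10.6 to 20.6 CPM and 11.6 to 12.9 CPM, and in BCAM LO they ran from 23.2 to 57.8 CPM and from 18.9 to 23.4 CPM. The log2 batch change was larger in DIFFERENTIATED EPCS than in BCAM HI by 1.53 (SE 0.42, edgeR adjusted p = 0.018) and than in BCAM LO by 1.25 (SE 0.41, edgeR adjusted p = 0.0433), downwards in 3 of 3 libraries.

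Zbp1 encodes a sensor of Z-form nucleic acid that can trigger cell death. In DIFFERENTIATED EPCS it ran from 9.79 to 15.8 CPM in batch 1 and stood at 0.427, 0.565 and 5.35 CPM in batch 2, all below batch 1. In BCAM HI it ran from 1.22 to 7.35 CPM and from 3.14 to 6.72 CPM, and in BCAM LO from 6.62 to 13.7 CPM and from 6.05 to 9.86 CPM, so these batches overlapped. The batch change differed between BCAM HI and DIFFERENTIATED EPCS by 2.93 (SE 0.85, edgeR adjusted p = 0.0249), with 3 of 3 libraries of batch 2 lower in the latter.

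Mx1, whose dynamin-like protein blocks influenza virus, was the third member by p and was not called (edgeR adjusted p = 0.0857). In BCAM HI it ran from 3.43 to 11.5 CPM in batch 1 and stood at 6.82, 18.4 and 28.9 CPM in batch 2. In DIFFERENTIATED EPCS it ran from 19.4 to 33.8 CPM and stood at 4.52, 4.69 and 30.0 CPM, so library 8 alone was within the batch 1 range. Leaving out a library moved the count of such members from 0 to 9, and 15 of the 24 libraries moved it by more than 1.5 times: it was 0 without DIFFERENTIATED EPCS library 3 and 9 without DIFFERENTIATED EPCS library 8. The 15 were BCAM HI libraries 1, 2, 3 and 7, BCAM LO libraries 1, 4, 6 and 7, and all DIFFERENTIATED EPCS libraries but number 1. Irf7 lost its call without DIFFERENTIATED EPCS library 3, 5, 6 or 7, and Zbp1 lost it without any 1 of the same libraries, with BCAM HI library 8 in place of DIFFERENTIATED EPCS library 8. Mx1 was called without BCAM HI library 8 or DIFFERENTIATED EPCS library 8.

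The members also set libraries of the same group and batch apart. The mean log2(CPM + 1) over the 38 members ran from 3.70 to 4 in batch 1 of BCAM HI and from 3.26 to 3.44 in batch 2. In BCAM LO it ran from 4.02 to 4.75 and from 3.57 to 4.07, and in DIFFERENTIATED EPCS from 4.40 to 5.18 and from 3.20 to 4.23. The batches overlapped in BCAM LO alone. The highest library of DIFFERENTIATED EPCS was number 5, with the highest level of its group in 13 of the 38 members, and the lowest was number 7, with the lowest level in 16. In BCAM LO, library 3 was highest in 17 members and library 7 lowest in 17.

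**Figure D5:**
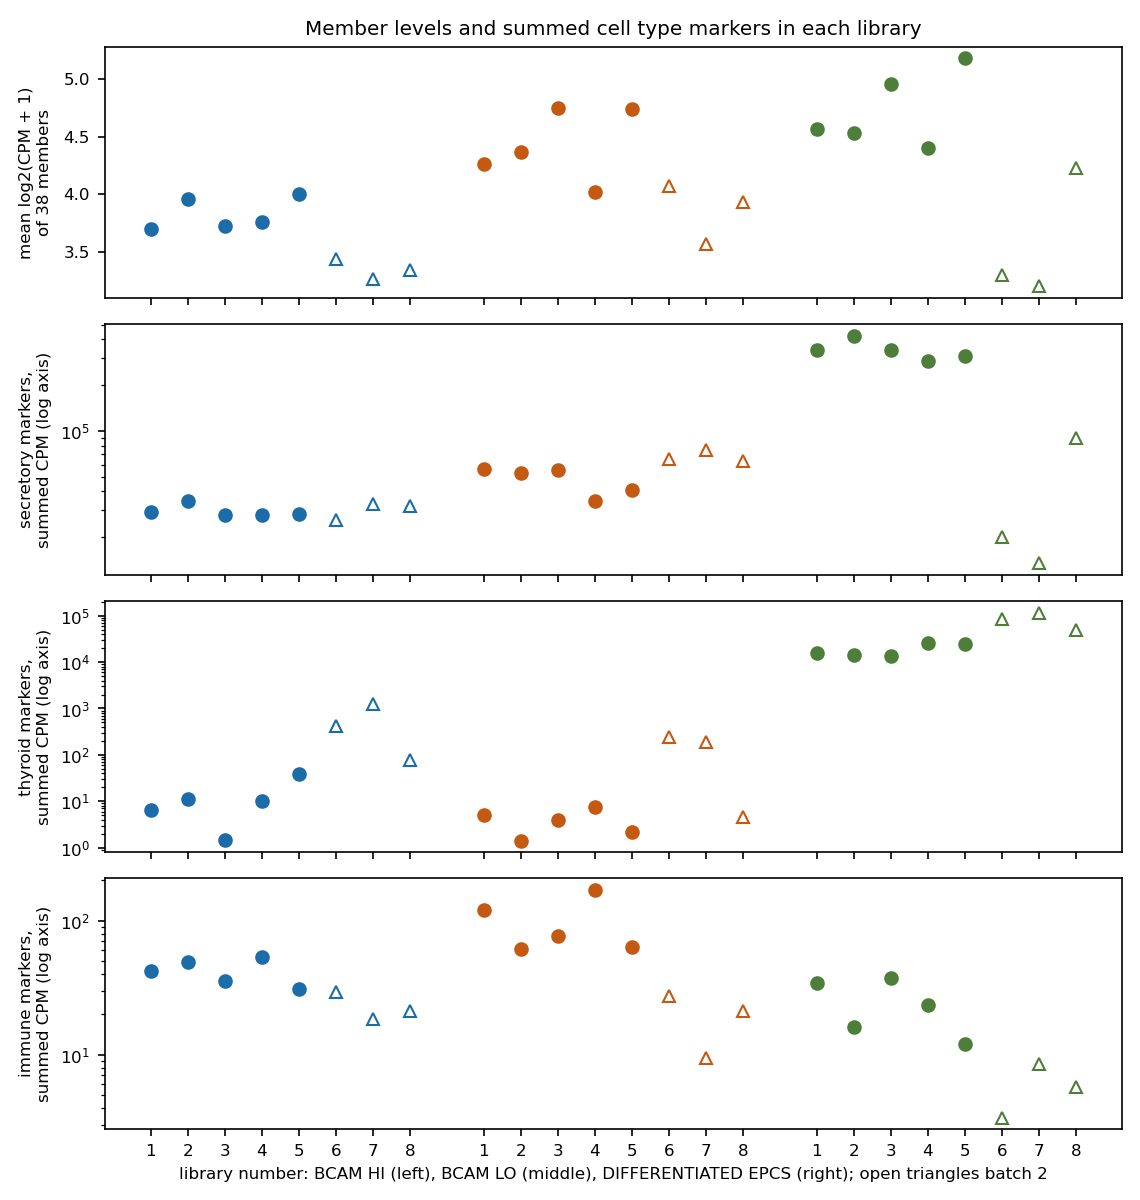
Top panel, mean log2(CPM + 1) over the 38 members in each library; lower panels, summed CPM (log axes) of secretory, thyroid and immune markers in the same libraries, with open triangles for batch 2. In the top panel DIFFERENTIATED EPCS spans the widest range, from 3.20 (library 7) to 5.18 (library 5), and BCAM HI stays at or below 4.

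In the main tests between groups, sensors and antigen processing genes were called only for BCAM HI minus DIFFERENTIATED EPCS, and guanylate-binding protein genes in none. There 2 of 3 sensors and 1 of 3 antigen processing genes were called lower, against 22.0% of all genes. The 3 sensor genes differed between BCAM HI and BCAM LO by -0.95 to -0.12, the 2 guanylate-binding protein genes by -0.05 to 0.36 and the 3 antigen processing genes by -0.50 to -0.06. Of these, 0 were called, against 7.02% of all genes. Psmb8 ran from 23.3 through a median of 34.0 to 46.7 CPM in BCAM HI, from 24.4 to 78.5 CPM in BCAM LO and from 32.8 through 58.9 to 78.1 CPM in DIFFERENTIATED EPCS, with overlap throughout. Tap1, a subunit of the peptide transporter, had medians of 36.2, 40.6 and 33.1 CPM. The untested Ifit2 had medians of 2.27, 1.35 and 1.71 CPM in BCAM HI, BCAM LO and DIFFERENTIATED EPCS, and Rsad2, whose product viperin blocks viral replication, had medians of 0.664, 2.10 and 1.19 CPM.

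Of the 36 tested members, 20 were called in at least 1 group comparison, 16 in none, and 10 neither between groups nor between batches. The same shares over all genes were not counted, but 41.3% of all genes were called between BCAM HI and DIFFERENTIATED EPCS alone. These counts are thus not read as a trait of the members. The 10 were Ifit3b, Mx1, Mx2, Zbp1, Parp14, Ifih1, Irf1, Stat2, Gbp2 and Psmb9. Of these, Zbp1 fell in batch 2 of DIFFERENTIATED EPCS, Mx1, Zbp1, Parp14 and Psmb9 were called between BCAM HI and another group within batch 1, and Irf1 and Gbp2 were called higher in BCAM HI than in DIFFERENTIATED EPCS on both TPM scales. Irf1, which interferon gamma induces, had a level of 97.8 CPM in batch 2 and 87.4 CPM in batch 1 (means over 9 and 15 libraries), and its group differences ran from -0.08 to 0.19. Stat2, the partner of IRF9 in the ISRE-binding complex, differed between groups by -0.30 to -0.11. Members with and without the ISRE letters were both among the called. Of 11 tested members with an ISRE core, 7 were lower in BCAM HI than in DIFFERENTIATED EPCS. Of 16 without it, 7 were lower and 2 higher, against 22.0% and 19.4% of all genes. Over batches the counts were 6 of 11 and 9 of 16 lower, against 9.61% of all genes.

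The genes upstream of these members were measured as a list of 33 interferon, receptor, kinase, sensor and regulator genes, 23 of them tested. The interferon genes themselves were near the limit of detection: of 8 looked at (Ifnb1, Ifna2, Ifna4, Ifnl2, Ifnl3, Ifng, Ifnk and Ifne), no library had more than 4 counts of any. Of the 23, 2 (8.7%) were called between BCAM HI and BCAM LO (1 higher, 1 lower), against 7.02% of all genes. Between BCAM HI and DIFFERENTIATED EPCS 8 (34.8%) were called (4 and 4), against 41.3%. Between BCAM LO and DIFFERENTIATED EPCS 4 (17.4%) were called (2 and 2), against 33.5%. Between batches 9 (39.1%) were called (6 higher and 3 lower in batch 2), against 21.4%.

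Among the receptor genes, Ifnar2, a subunit of the type I receptor, was lower in both BCAM groups than in DIFFERENTIATED EPCS, in 8 of 8 libraries each, with log2 differences of -0.61 (SE 0.14, edgeR adjusted p = 5.78e-04) for BCAM HI and -0.75 (SE 0.14, edgeR adjusted p = 7.60e-05) for BCAM LO. Ifnar1, Ifnlr1 and Il10rb were not called in the 3 group comparisons or over batches. The gamma receptor genes moved in opposite directions with batch, Ifngr1 by -0.54 (SE 0.12, edgeR adjusted p = 0.00202, 9 of 9 libraries lower) and Ifngr2 by 0.49 (SE 0.12, edgeR adjusted p = 0.00538, 6 of 9 higher). The 6 were those of BCAM HI and BCAM LO. In DIFFERENTIATED EPCS, Ifngr2 ran from 41.5 to 52.8 CPM in batch 1 and from 45.6 to 50.8 CPM in batch 2. Irf5, a transcription factor downstream of Toll-like receptors, ran from 18.7 to 52.1 CPM in BCAM HI and from 2.06 to 11.5 CPM in DIFFERENTIATED EPCS, a difference of 2.75 (SE 0.23, edgeR adjusted p = 7.58e-11, 8 of 8 higher). Socs3, an inhibitor of JAK signalling, had medians of 548 CPM in BCAM HI, 319 CPM in BCAM LO and 228 CPM in DIFFERENTIATED EPCS, with no overlap between BCAM HI and the others, and was higher in BCAM HI than in DIFFERENTIATED EPCS by 1.27 (SE 0.12, edgeR adjusted p = 2.23e-09, 8 of 8 higher).

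A second list held 45 further interferon-stimulated genes, 40 of them tested. Between BCAM HI and BCAM LO 3 were called, all lower, against 7.02% of all genes, and between BCAM HI and DIFFERENTIATED EPCS 13 were called, 10 lower and 3 higher, against 41.3%. Between BCAM LO and DIFFERENTIATED EPCS 9 were called, 6 lower and 3 higher, against 33.5%, and between batches 13 were called, 12 lower in batch 2 and 1 higher, against 21.4%. Their median differences were -0.14, -0.27, -0.12 and -0.33, against -0.51, -0.72, -0.22 and -0.72 for the 36 tested members. B2m, the light chain of class I antigen-presenting molecules, ran from 154 to 368 CPM in BCAM HI and from 315 to 677 CPM in DIFFERENTIATED EPCS, and fell by 0.92 (SE 0.08, edgeR adjusted p = 5.93e-09) in batch 2 on the log2 scale, in 9 of 9 libraries. Ube2l6, the conjugating enzyme that passes ISG15 to its targets, fell by 1.04 (SE 0.13, edgeR adjusted p = 3.05e-06) in 9 of 9 libraries.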

How the data were processed

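Bulk RNA of 24 libraries was deposited as 1 table per library, in which the authors gave an estimated count and a TPM for each of 117497 transcripts, per the file headers. The submitters' processing notes name kallisto 46.1, Picard and GRCm39; they give no role or order. Transcripts were summed to genes with GENCODE M21 (116374 matched; the rest held 0.317% to 0.594% of counts), and coordinates are those of GRCm38. Estimated counts were rounded and tested with edgeR 4.0.16 in R 4.3.3 (TMM, low counts filtered, quasi-likelihood, group and batch as terms; a mean per group and batch for batch changes within groups), adjusted by Benjamini-Hochberg over all genes. Alternatives used DESeq2 1.42.0 size factors, no filter, limma 3.58.1 on log2(TPM + 1) and log2(TPM + 0.1), the replicate number as a block, single batches, copies summed and each library left out. The test was checked on simulated data. Values in every library are given for Ifit1bl1, for the 5 members with the smallest p in each group comparison and over batches, and for 3 of the test of unequal batch changes; others were chosen as examples. The members and lists were chosen with earlier results of these data known. The values of 1 gene of the upstream list are not reported here.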

Additional observations from a re-analysis of the deposited data

Results flagged for a closer look

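In 1 of 42 groups of 8 libraries examined, a library stood far from the others: Oasl1 was at 13.5 CPM in BCAM LO library 2, and the next highest BCAM LO library was at 6.43 CPM. Chance alone gives such a gap in about 1 of 20 groups.

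The batch change differed between groups by edgeR's test of the difference itself for Irf7 (adjusted p = 0.0241) and Zbp1 (adjusted p = 0.0411). Between BCAM HI and DIFFERENTIATED EPCS the batch change of Irf7 differed by 1.53 on the log2 scale (edgeR adjusted p = 0.018) and that of Zbp1 by 2.93 (edgeR adjusted p = 0.0249), and between BCAM LO and DIFFERENTIATED EPCS that of Irf7 differed by 1.25 (edgeR adjusted p = 0.0433). In each case the DIFFERENTIATED EPCS libraries fell further in batch 2, in 3 of 3 libraries. The secretory and thyroid shares of those libraries differ between the same batches, and their part in the result was not tested.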

How the results depend on the processing

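No gene given with values in every library turned direction in the comparison that named it. On both TPM scales Rtp4 and Ddx58 changed sign between BCAM HI and DIFFERENTIATED EPCS. The counts of that comparison turned as well, from 3 higher and 17 lower to 10 higher and 8 lower on both. Between BCAM LO and DIFFERENTIATED EPCS, 3 higher and 3 lower became 5 and 2 with log2(TPM + 1), and 5 and 1 with log2(TPM + 0.1). With log2(TPM + 1) and log2(TPM + 0.1) the members' median turned from -0.72 to 0.08 and 0.17 between BCAM HI and DIFFERENTIATED EPCS. Between BCAM LO and DIFFERENTIATED EPCS it turned from -0.22 to 0.31 and 0.36. The count of members called between BCAM HI and BCAM LO (6) was 3 with limma on log2(TPM + 0.1), against 6.59% of all genes called. It was 0 in batch 2 alone and 10 without BCAM LO libraries 1 and 4, an alternative chosen after seeing the data. Between BCAM HI and DIFFERENTIATED EPCS (20) it was 5 in batch 2 alone, and between BCAM LO and DIFFERENTIATED EPCS (6) it was 11 in batch 1 alone and 1 in batch 2 alone, where fewer libraries enter. Over batches (18) it was 11 with limma on either TPM scale and 13 without DIFFERENTIATED EPCS, also chosen after seeing the data. The share of all genes called over batches was 15.6% with log2(TPM + 1) and 14.1% with log2(TPM + 0.1), against 21.4% with edgeR. With limma on log2(TPM + 1) and log2(TPM + 0.1) the batch counts were 3 and 2 in BCAM HI, where 3.16% and 2.34% of all genes were called, against 8.04% with edgeR. In BCAM LO they were 3 and 2, where 5.22% and 4.32% of all genes were called, against 11.1%. The count of unequal batch changes (2) was 0 and 1 on these scales, with 4 members at an unadjusted p under 0.05 in each, against 8 with edgeR. With no filter the count of unequal batch changes was 6. The cause was not tested. Leaving out each library gave 5 to 8, 16 to 23 and 6 to 8 members in the 3 group comparisons, 15 to 19 over batches, 3 to 9, 1 to 8 and 9 to 21 within BCAM HI, BCAM LO and DIFFERENTIATED EPCS, and 0 to 9 for unequal changes.

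With the replicate number as a block, 5, 19 and 6 members were called in the group comparisons and 5 for unequal batch changes. Shares of all genes called are not given for the block or for the fits that left out 1 library. Those counts are thus not read as a change in the members. Batch itself could not be fitted with the block, since each number lies in 1 batch. The numbers were not taken as pairs in the main tests. Same-numbered libraries had correlated deviations of 0.0315 to 0.176 (median 0.078), over 0.1 in 7 of 24 pairs. In the 78 other pairs of the same batch the median was -0.0192. Of 24 libraries, 23 correlated best with their own number in both other groups, a pattern of the data that the labels do not explain. Libraries with the same number thus cannot be taken as independent, which the main tests leave out. Counts of a few per library, as for Oas2 or Oasl1 in BCAM HI, limit how small a difference could be seen.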
